A study of Papilio xuthus with 16 samples.

Results

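Of the 3272 gene sequences of the swallowtail butterfly Papilio xuthus that were measured here, 19 had a signal in the larval epidermis that was high between molts and at least 3-fold lower at every sampled hour of both the third and the fourth molt. They were chosen by their measured values. For each sequence the processed signal was averaged over its probes and over both regions of an array, and then over the arrays of a stage. A sequence was kept when its intermolt mean was over 1000 and at least 3-fold every molt stage of the same instar, in both instars, and when no probe differed over 2-fold between the mean signals of the paired regions in either instar. Genes named as cuticular, takeout, osiris or ribosomal were to be left out. In all, 1317 sequences were over 1000 in both intermolts and 19 of them passed the fold criterion. No further sequence was lost to the criteria on regions and names. The name tables used here were shortened and covered 401 of the 3272 sequences and 1 of the 19, so the criterion on names could not act on the other 18, which may include genes of those families.

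The epidermis of a caterpillar secretes and maintains the cuticle, and during the intermolt it thickens the cuticle in use while the body grows. Each molt begins when the steroid hormone ecdysone rises. The epidermis then detaches from the old cuticle, the head capsule slips forward, and a new cuticle with the next pattern is made underneath it. In this species the third molt keeps the mimetic pattern of black and white, which resembles a bird dropping, and the fourth molt leads to the cryptic green pattern of the last instar.

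The samples were RNA of dissected epidermis from larvae fed on leaves of Zanthoxylum ailanthoides and staged by head capsule slippage (HCS). Of the 16 arrays, 6 paired white with black epidermis of the third instar, at intermolt (day 2) and 0, 4, 8, 11 and 16 h past HCS. The fourth instar, at intermolt (day 2) and 1, 4, 10 and 13 h past HCS, had 5 arrays of thoracic green epidermis with the eyespot marking and 5 of abdominal green epidermis with the V-shaped marking. The first-named region of each pair carried the dye Cy3 and the second Cy5, with no exchange of dyes, and paired regions came in part from different segments. There was a single array for every stage of a comparison, so stages stand in for replicates, and how many larvae gave each RNA is not stated in the sources used here. The AK probes were designed on cDNAs that were cloned mainly from molting epidermis, so genes silent in the molts may have no probe.

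By the names of the scans there were 2 slides. On slide 2 were both intermolts, the samples at 0, 4 and 16 h of the third molt and those at 1 h of the fourth. All other stages were on slide 1. The 75th percentile of the signal ranged from 2100 to 4390 over the 32 samples and from 2760 to 3190 over the intermolt samples, and 77.3% to 88.0% of the probes were well above background. All 13 muscle genes searched by name were measured on every array. Their summed signal was 1012219 in the intermolt of the third instar, inside its range of 918087 to 1808641 over the third molt, and 1025629 in that of the fourth, above its range of 473414 to 838602 over the fourth molt. Of 5 names of fat body markers only 1, larval serum protein 1 gamma (Px-0099), was found, a storage protein of the fat body and haemolymph. Its signal was 1570 and 1690 in the third intermolt against 20.7 to 1770 in the third molt, and 50550 to 134500 in the fourth intermolt against 8.47 to 2090 in the fourth molt. Of the haemocyte and midgut names, 0 of 3 and 0 of 3 were found. The signal of the fat body marker and the summed signal of the muscle genes were thus higher in the intermolt of the fourth instar, as those of the 19 genes were. Of the muscle genes troponin T, troponin I and the Z band PDZ-motif protein 66 were exceptions, at 0.739, 0.928 and 0.932 of their highest stage of the fourth molt. The part of these signals in the values of the 19 genes was not tested.

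Only 1 of the 19 genes has a name in the gene tables used here. This is Px-0392 (AK401321), listed as an unknown secreted protein. The other 18 are given by their sequence identifiers, and nothing is said of their function. Together the 19 genes had 49 of the 8138 probes, from 2 to 6 per gene. One probe of Px-0392 is shown because it is the only probe of the group whose bases could be paired with its signal and which lies inside a reading frame. Its 60 bases are positions 126 to 185 of the cDNA, and the open reading frame of 75 codons and a stop runs from 41 to 268.
Px-0392 probe: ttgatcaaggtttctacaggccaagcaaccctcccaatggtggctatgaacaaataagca

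Px-0392 was among the brightest genes of the group and also one of the closest to the threshold. In the intermolt of the third instar its signal was 44333 in white and 46167 in black epidermis. In the third molt the 10 samples ranged from 3108 to 15833 with a median of 6625. In the fourth intermolt it was 29047 in thoracic green, 34953 in the eyespot, 50233 in abdominal green and 44833 in the V-shaped marking. In the fourth molt the 16 samples ranged from 443 to 8990 with a median of 2996. The intermolt and molt samples did not overlap in either instar. The stage means of Px-0392 traced a trough, from 14818 at 0 h to 3374 at 8 h and back to 14632 at 16 h of the third molt, and from 4180 at 1 h to 614 at 4 h and 6190 at 13 h of the fourth. The intermolt was 3.05-fold the highest stage of the third molt and 6.42-fold that of the fourth. Its 3 probes gave 3.30, 5.32 and 2.36 in the third instar, so that 1 of them alone missed the threshold. The gene also missed it when each channel was scaled to its 75th percentile, with the green channel alone and with the red channel alone.

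The largest lower ratio of the group belonged to AK401683, whose signal dropped at the very start of each molt. In the third intermolt it was 35850 in white and 40300 in black, and the 10 molt samples ranged from 53.7 to 2915 with a median of 156. In the fourth intermolt it was 51250 in thoracic green, 20500 in the eyespot, 6925 in abdominal green and 14550 in the V-shaped marking, and the 16 molt samples ranged from 17.8 to 3350 with a median of 588. The lowest stage means of AK401683 were 74.5 at 0 h of the third molt and 24.8 at 1 h of the fourth, and the means then rose to 2692 at 16 h and 2004 at 13 h. It was the only gene of the group whose signal was lowest at the first sampled hour in either molt. The intermolt was 14.1-fold the highest molt stage in the third instar and 11.6-fold in the fourth, and 511-fold and 939-fold the lowest. The last value is approximate, since at 1 h of the fourth molt 1 of the 4 samples, abdominal green, had no probe well above background, and thoracic green and the eyespot had 1 of 2.

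AK404040 was the brightest gene of the group in the intermolt. Its signal was 47800 in white and 68800 in black in the third instar, against a range of 606 to 6205 with a median of 3445 in the third molt. In the fourth instar it was 37650 in thoracic green, 51800 in the eyespot, 88350 in abdominal green and 61850 in the V-shaped marking, against 340 to 1910 with a median of 694 in the fourth molt. The samples of the 2 stages were far apart in each instar. Its ratio over the highest molt stage was 11.0 in the third instar and 53.5 in the fourth, the highest of the group in the fourth.

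AK403971 was lower in level, with 9105 in white and 10890 in black in the third intermolt. The third molt ranged from 322 to 1196 with a median of 662. The fourth intermolt signals were 11455 in thoracic green, 12860 in the eyespot, 13490 in abdominal green and 17135 in the V-shaped marking. Against them the fourth molt ranged from 214 to 978 with a median of 422. The groups did not overlap, and the ratios were 8.50 and 15.1.

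AK402894 had 4 probes, which all passed in both instars. In the third intermolt its signals were 15476 in white and 18522 in black, against 513 to 3147 with a median of 1191 in the molt. In the fourth intermolt they were 13370 in thoracic green, 15615 in the eyespot, 31458 in abdominal green and 14485 in the V-shaped marking, against 126 to 1100 with a median of 253. Abdominal green stood above the other intermolt regions of this gene, and no molt sample reached an intermolt sample. The ratios were 6.31 and 27.6.

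AK401672 differed most between the instars in its intermolt level. It was 46550 in white and 50150 in black in the third intermolt, and 8405 in thoracic green, 7505 in the eyespot, 13880 in abdominal green and 20570 in the V-shaped marking in the fourth, a ratio of 0.260 of the fourth mean to the third. The third molt ranged from 46.4 to 5830 with a median of 543, and the fourth from 143 to 4050 with a median of 848. The highest molt samples were black at 0 h and the eyespot at 13 h, and both lay below every intermolt sample of their instar. The ratios were 11.3 and 5.33.

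AK403587 was the dimmest gene of the group. The third intermolt gave 2380 in white and 2496 in black, against 74.6 to 573 with a median of 357 in the molt. The fourth intermolt gave 868 in thoracic green, 885 in the eyespot, 2831 in abdominal green and 1402 in the V-shaped marking, against 35.7 to 434 with a median of 121. The abdominal regions of this gene were higher than the thoracic ones in the fourth intermolt, and the groups did not overlap. The ratios were 4.81 and 5.52, and 1 of its 3 probes, with 1.32 in the fourth instar, did not pass alone.

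AK403635 gave 7070 in white and 9245 in black in the third intermolt, against 167 to 1825 with a median of 488 in the molt. In the fourth intermolt it gave 5680 in thoracic green, 6460 in the eyespot, 16200 in abdominal green and 9710 in the V-shaped marking, against 113 to 434 with a median of 170. No molt sample overlapped the intermolt samples. The ratios were 4.72 and 26.4.

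**Figure D1:**
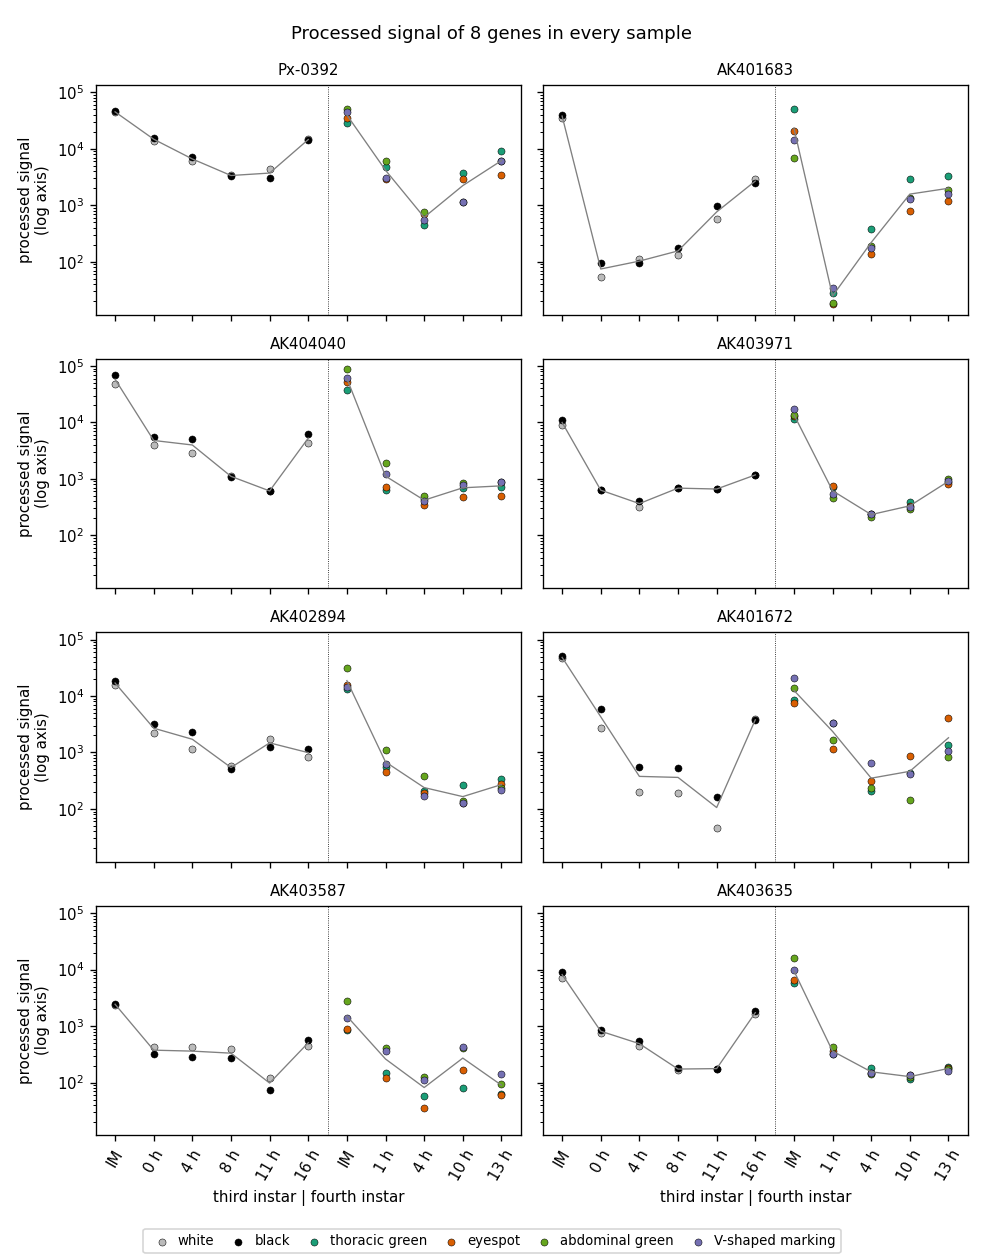
Processed signal (log axis) of 8 genes in every sample, by stage of the third and the fourth instar (IM, intermolt; hours after HCS); points are samples coloured by region and grey lines join the stage means. In each panel every intermolt point lies above every molt point of its instar, and AK401683 is lowest at the first molt stage while Px-0392 is lowest at 8 h and 4 h.

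The other 11 genes had intermolt means between 3491 and 18600 and a lower ratio between 3.00 and 4.61. AK403895 (4.61 in the third instar and 9.26 in the fourth), AK401667 (6.28 and 3.92) and AK401585 (3.81 and 3.97) led them. AK401889 (3.64 and 5.37), AK403209 (3.61 and 7.14), AK401600 (3.57 and 7.29) and AK402895 (3.33 and 4.32) followed. AK403863 had 3.29 and 4.49, AK401570 3.26 and 6.92, and AK403889 3.21 and 4.72. The weakest was AK402125 with 3.00 and 3.39. Its signal was 8450 in the third intermolt and 18225 in the fourth, the only mean that more than doubled between them. Just inside the threshold of 3 lay AK403889, Px-0392 and AK402125, and just outside it AK402015 with a lower ratio of 2.94, AK403854 with 2.93 and AK401743 with 2.90. Before the criterion on regions there were 53 sequences with a lower ratio from 2 to 3, 11 from 3 to 4 and 8 at 4 or more, so the threshold does not fall in a gap.

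In the third instar alone 1.59% of all sequences were at least 3-fold higher in the intermolt than in every molt stage, in the fourth 5.68%, and 0.581% passed the whole rule. The ratio was larger in the fourth instar for 16 of the 19 genes. In all 19 each intermolt sample was higher than each molt sample in both instars, which held for 24.7% of all sequences in the third instar and 17.8% in the fourth. These are the values the choice rests on, and nothing is read from them.

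**Figure D2:**
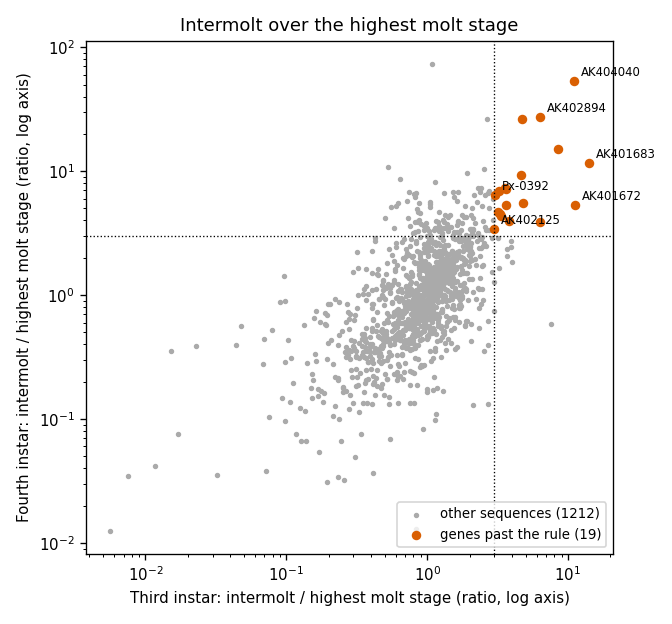
Ratio of the intermolt mean to the highest molt stage in the third instar (x, log axis) and the fourth (y, log axis) for 1231 sequences over 1000 in both intermolts, without those named in the shortened tables as cuticular, takeout, osiris or ribosomal (1084 of the 1231 have no name there); dotted lines mark 3-fold. The 19 genes lie above and right of both lines, with AK404040 at 11.0 and 53.5, and other sequences reach close to the corner from each side.

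The signal of most genes stayed measurable in the molts with at least 1 probe. By that measure the genes were well above background in 487 of 494 molt values and in all 114 intermolt values. For 16 of the 19 this held in every molt sample. Of the 49 probes, 37 were well above background in every sample at 4, 10 and 13 h of the fourth molt. At 4 h only 1 of the 3 probes of AK403587 was so in thoracic green, the eyespot and the V-shaped marking. Of the 1568 spots of these genes 0 were saturated. Among the 19 genes the median log2 ratio to the intermolt lay between -3.86 and -2.57 over the stages of the third molt and between -4.89 and -3.25 over those of the fourth. The median over the 1317 sequences over 1000 lay between -0.64 and -0.37 and between -1.21 and -0.41. Within slide 2, where intermolt and molt arrays share a slide, the intermolt was 3.00 to 14.1-fold the highest of 0, 4 and 16 h in the third instar (median 4.48) and 3.92 to 939-fold 1 h in the fourth (median 9.51, the highest being the approximate value of AK401683), a subset of the values used to choose the genes.

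**Figure D3:**
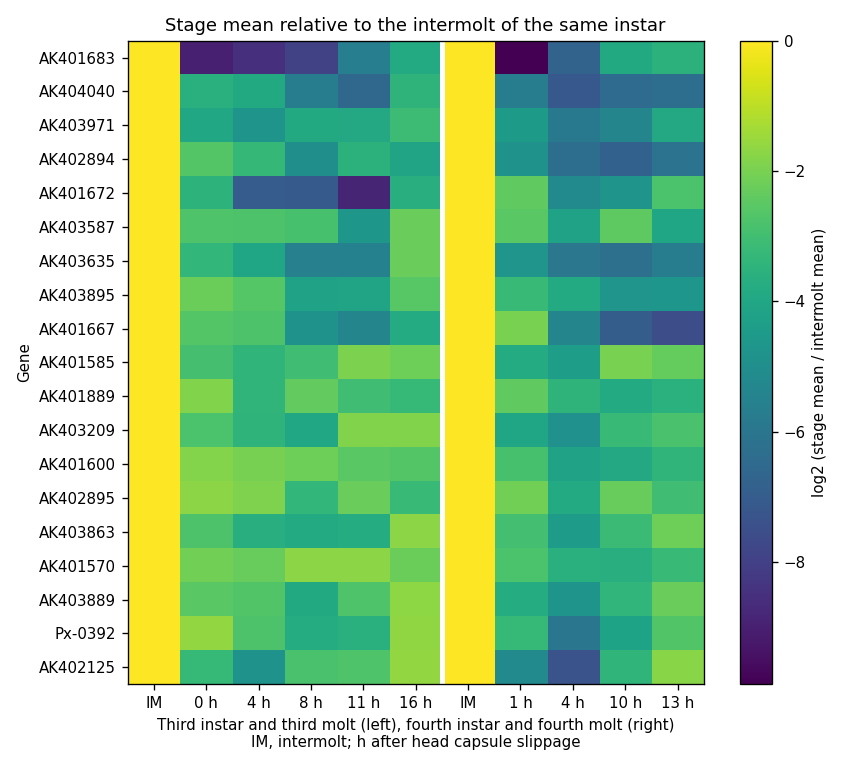
Stage mean of each of the 19 genes as the log2 ratio to the intermolt of the same instar, by stage; rows are ordered by the lower of the 2 ratios and the white line parts the instars. In the fourth molt 12 of the 19 rows are darkest at 4 h.

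Not all probes of a gene told the same. Of the 49 probes, 38 passed both ratios alone, and for 11 genes every probe did. The clearest exception was AK402895 with 6 probes. Probes AK402895-3 and AK402895-4, whose means in the intermolt of the third instar were 22700 and 23600, gave ratios of 3.48 and 3.45 in the third instar and 4.52 and 4.63 in the fourth. Probe AK402895-2, with 324, gave 0.120 and 0.0484, which is a signal higher in the molts. In the intermolt the gene mean therefore follows its bright probes, but not at every molt stage. From 4 to 10 h of the fourth molt AK402895-3 fell from 878 to 494 and AK402895-4 from 984 to 549. The gene mean rose from 477 to 1363 between these hours, with AK402895-2 at 6060 at 10 h. Of AK401585, probe AK401585-1 gave 1.96 and 1.39 and AK401585-2 gave 4.06 and 5.08. Probes AK403895-1, AK402895-5 and AK402895-6 were also under 3 in both instars.

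The order of the molt stages was not used in choosing the genes, although each stage was capped. The trough differed in time between them. In the fourth molt 12 of the 19 were lowest at 4 h, 5 at 10 h, 1 at 1 h and 1 at 13 h. Among those at 4 h is AK402895, whose bright probes AK402895-3 and AK402895-4 were lowest at 10 h. Of the 1773 sequences with a mean over 1000, 27.2% were lowest at 4 h, 22.4% at 10 h, 20.8% at 1 h and 29.7% at 13 h. In the third molt 8 of the 19 were lowest at 8 h, 5 at 4 h, 4 at 11 h, 1 at 0 h and 1 at 16 h. Of those sequences 14.8% were lowest at 8 h, 17.4% at 4 h, 13.3% at 11 h, 19.5% at 0 h and 35.1% at 16 h. The highest of the molt stages was 1 h for 10 genes (46.8% of those sequences) and 13 h for 7 (20.4%) in the fourth molt, and 16 h for 9 (14.9%) and 0 h for 8 (37.5%) in the third. The signal at 16 h was at least 2-fold the lower of 8 and 11 h for 12 genes (18.7% of those sequences), and the signal at 13 h at least 2-fold that at 4 h for 9 (22.7%), of which 7 are among the 12. For 1 gene, AK401667, the signal at 4 h was at least 2-fold that at 13 h (29.8%). With 1 array per stage and slides that differ between 11 and 16 h, no test was made of the third molt.

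In the fourth molt, 4, 10 and 13 h lay on slide 1 and were compared in limma over the eyespot and V-shaped arrays, each array taken as the mean of its regions. Of all 8138 probes 54.9% changed between 4 and 13 h (adjusted p under 0.05), 25.1% upward and 29.7% downward. Of the 49 probes of these genes 29 rose and 3 fell. By gene, 10 of the 19 rose with all their probes, 4 with some, 1 fell with all its probes and 1 with some, and 3 had no probe past the test. Among those that rose with some is AK402895. Its bright probes AK402895-3 and AK402895-4 did not pass, at -0.30 and -0.28 on the log2 scale. Its probes that rose include AK402895-2, AK402895-5 and AK402895-6, which had intermolt ratios under 3 in both instars. The median change was 0.94 on the log2 scale over the 49 probes and -0.04 over all probes. The p-values measure the spread between body regions of 1 collection of larvae per stage.

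The rise was largest in AK402125, whose log2 change was 5.67 ± 0.36 (SE, adjusted p = 0.000629 in limma) with probe AK402125-1 and 5.62 ± 0.23 with AK402125-2. Its signal was 44.8 to 177 at 4 h and 3250 to 8795 at 13 h, still below the 15000 to 20600 of the intermolt. At 4 h its abdominal green sample, at 44.8, was not well above background, so the size of the change is approximate. In the 3 regions well above background at both hours it was 4.20 to 6.49 on the log2 scale of the mean over probes. With only probes well above background neither probe was tested. Px-0392 followed, with 3.45 ± 0.44 (adjusted p = 0.0043 in limma) for the probe printed above, and with 3.89 and 3.15 for the others. The probes of AK401683 rose by 2.86 and 3.40, those of AK403889 by 2.19 to 2.71 and those of AK403863 by 2.04 and 2.54. AK403971 (1.84 and 2.54), AK403209 (2.38 and 1.97), AK401585 (2.09 and 2.11), AK401672 (1.71 and 2.42) and AK404040 (0.83 and 0.79) rose with all their probes as well. In their stage means over regions and probes all of these genes were still at least 3-fold below the intermolt, as the choice required. Single regions and probes could be closer. AK402125 in thoracic green had 8795 at 13 h against 15000 in the intermolt, and AK401672 in the eyespot 4050 against 7505. Probe AK401585-1 had 769 against 1762.5.

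AK401667 went the other way. Its log2 change from 4 to 13 h was -2.33 ± 0.19 (adjusted p = 0.00124 in limma) with probe AK401667-2 and -2.34 with AK401667-1. The signal was 778 to 2335 at 1 h, 87.2 to 260 at 4 h and 9.16 to 60.5 at 13 h. At 13 h 1 of the 4 samples was well above background, so the level there is little more than a bound. Probe AK403895-2 fell by 1.80, while AK403895-1 and AK403895-3, at 0.38 and 0.42, did not pass. AK401570, AK401889 and AK403635 had no probe past the test, with changes between -0.18 and 0.56.

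Between 4 and 10 h, 50.7% of all probes changed, 22.6% upward and 28.1% downward, and of the 49 probes 22 rose and 3 fell. Scaling each channel to its 75th percentile shifted the median change of all probes from -0.07 to 0.17 at 10 h and from -0.04 to 0.10 at 13 h. It turned the share of risers among all probes called at 10 h from 44.5% to 54.8%. Of the 49 probes 25 then rose at 10 h and 31 at 13 h. Each of the called probes of the 19 genes kept its direction in all alternatives in which it was fitted.

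**Figure D4:**
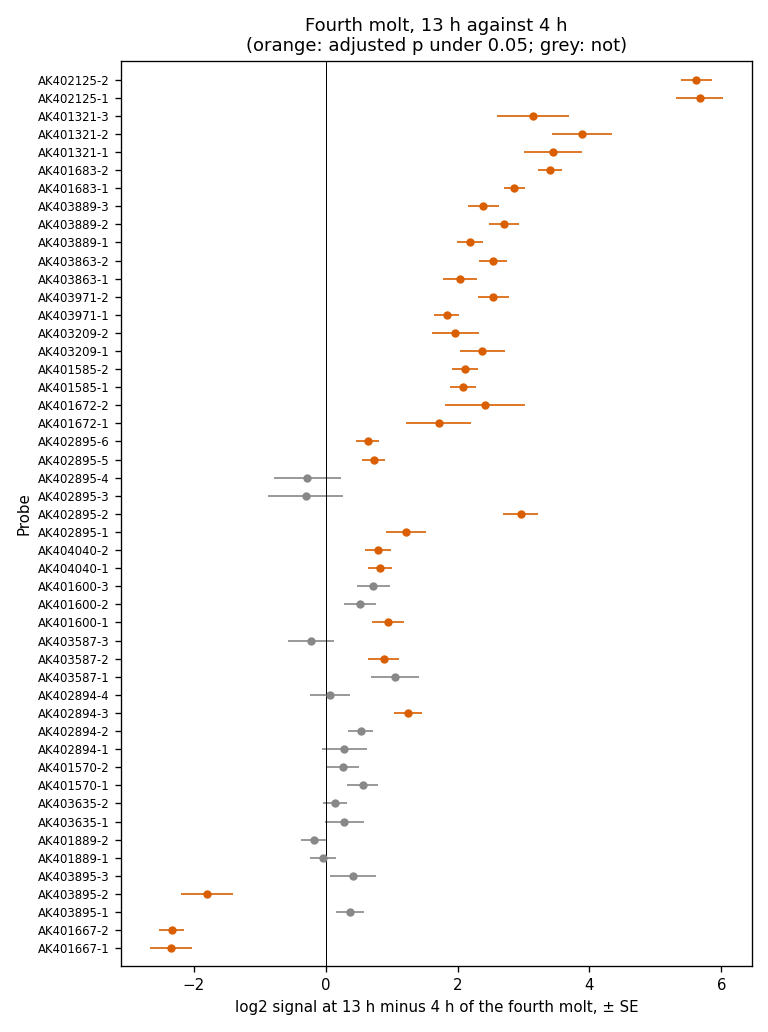
Change in log2 signal from 4 to 13 h of the fourth molt for the 49 probes of the 19 genes, with the limma standard error as bars; orange points had an adjusted p under 0.05, grey points did not, and AK401321 is Px-0392. Of the points 29 are orange to the right of 0 and 3 to the left, with AK402125 at 5.62 and 5.67.

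Body position was averaged over in choosing the genes, and was compared with the same dye on each side, paired over the 5 stages of the fourth instar. Both comparisons used the same arrays, each in its own channel, so they are not independent of each other. The eyespot and the V-shaped marking also differ in kind, not only in position. In limma 0 of 8138 probes passed for thoracic against abdominal green and 0 for the eyespot against the V-shaped marking, so 0% of all probes and none of the 49. At an unadjusted p under 0.05 there were 1025 and 1070 of all probes and 14 and 10 of the 49. The median thorax minus abdomen difference in green was -0.17 on the log2 scale over the 49 and 0.14 over all probes. With the 75th percentile scaling these were -0.30 and 0.01.

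AK403587 had the lowest mean difference of the group in both comparisons and was lower in the thorax at all 5 stages in each. The log2 difference was -1.21 ± 0.61 (SD, n = 5 stages) in green and -1.14 ± 0.20 between the markings. Its probe AK403587-3 had an adjusted p of 0.285 in green and 0.11 between the markings in limma over all probes, and 0.0255 between the markings when only probes well above background were tested. AK404040 was also lower in the thorax at 5 of 5 stages in each comparison, by a mean log2 of -0.72 ± 0.67 (SD, n = 5 stages) and -0.59 ± 0.31, and AK403889 at 5 and 4 of 5. AK401683 and AK402125 were higher in thoracic green at 5 of 5 stages, AK401683 by 1.29 ± 0.92 (SD, n = 5 stages). In abdominal green, AK401683 at 1 h and AK402125 at 4 h had no probe well above background, so the differences at those stages are approximate. Between the markings AK401683 had -0.41 ± 0.58, and the difference between the 2 contrasts did not pass (limma, adjusted p = 0.469 for probe AK401683-1), nor did it for any other of the 8138 probes fitted.

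**Figure D5:**
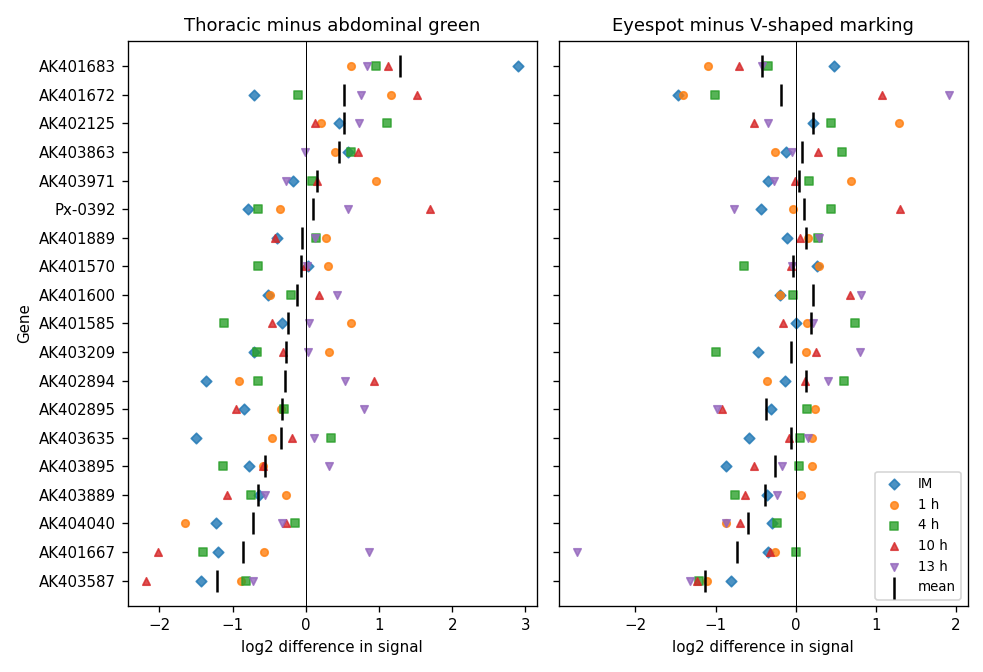
Log2 difference in signal between thorax and abdomen for the 19 genes at 5 stages of the fourth instar, in green epidermis (left) and in markings (right); symbols are stages and black bars are means over the stages. AK403587 lies left of 0 at every stage on both sides, and AK401683 lies right of 0 at every stage in green only.

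In the fourth intermolt 13 of the 19 genes were highest in abdominal green, compared with 43.3% of the sequences over 1000 in both intermolts, and 13 were lowest in thoracic green, compared with 44%. The spread over the 4 regions was 1.25-fold in AK401570 and 7.40-fold in AK401683, with a median of 1.73. In the same samples larval serum protein 1 gamma had 134500 in abdominal green, 94500 in the eyespot, 71600 in thoracic green and 50550 in the V-shaped marking. In the third intermolt 14 of the 19 were higher in black than in white, compared with 48.8%.

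The rule bounded the mean ratio of the paired regions, and on single arrays the ratio went further. It exceeded 2-fold in 2 of 57 values of the intermolt arrays and in 26 of 247 of the molt arrays. Those of the intermolt were both of AK401683, with a log2 ratio of -1.33 between the eyespot and thoracic green and 1.08 between the V-shaped marking and abdominal green. AK401683 was lower in the eyespot than in thoracic green on 5 of 5 arrays, by over 2-fold on 4. The mean log2 ratio there was -1.37 ± 0.38 (SD, n = 5). Between the V-shaped marking and abdominal green its mean was 0.33 ± 0.63 (SD, n = 5). With the fourth instar from the eyespot arrays alone, AK401683 did not pass the rule. AK401672 was higher in black than in white on 5 of 6 arrays, with a mean log2 ratio of 0.99 ± 0.78 (SD, n = 6) and 1.80 at 11 h. It was higher in the V-shaped marking than in abdominal green on 5 of 5 arrays, by 1.01 ± 0.47 (SD, n = 5). Between the eyespot and thoracic green it was higher in the eyespot on 3 of 5 arrays, with a mean log2 ratio of 0.31 ± 1.17 (SD, n = 5) and -1.45 at 1 h.

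The instars were compared over stage pairs on 1 slide each, namely the intermolts, 0 with 1 h, 8 with 10 h and 11 with 13 h, with abdominal arrays on both sides. In limma 14 of 8138 probes (0.172%) were higher in the fourth instar and 0 lower, none of them among the 49. At an unadjusted p under 0.05 there were 982 of all probes and 4 of the 49. The median difference, as the fourth instar minus the third, was -0.27 on the log2 scale over the 49 probes and -0.37 over all probes, and 0.02 and -0.08 with the 75th percentile scaling. AK401889 was lower in the fourth instar at 4 of 4 pairs, by a mean log2 of -1.22 ± 0.60 (SD, n = 4 pairs), with an adjusted p of 0.404 in limma for AK401889-2. The other genes had pairs of either sign, from -1.17 ± 1.43 in AK401667 to 0.51 ± 1.41 in AK402125.

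The lists of named genes could be searched only in the shortened tables, so a search by name could not have found the 18 genes without a name. None of the listed genes was at least 3-fold above every molt stage in both instars. Among the AK sequences outside the excluded families the nearest named gene was adenosylhomocysteinase (Px-0344), the enzyme that clears S-adenosylhomocysteine from the methyl cycle, with ratios of 2.46 and 5.19. Genes with their highest signal in both intermolts, which 652 of 3272 sequences had in all, were 2 of 2 in the methyl cycle list, 2 of 2 in the proteasome, 5 of 5 in mitochondrial ATP production, 6 of 10 translation factors and 4 of 7 antioxidant and detoxification genes. They were 0 of the 12 ecdysone response regulators, 0 of the 8 genes of epidermal cuticle, 0 of 7 in the secretory pathway, 0 of 4 in lipid and hydrocarbon synthesis, 0 of 5 in chitin synthesis and turnover and 1 of the 13 muscle genes. These are counts without a test.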

How the data were processed

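The deposited scanner files give, for each spot and channel, a processed signal intensity, which the authors' scanner software (Feature Extraction 9.5.3.1 in the file headers, another version in the methods) had corrected for background and for dye within each array. Nothing was scaled between arrays. Signals were read for the 8138 probes of 3272 sequences whose probe names begin with AK, without control spots, and averaged as described. The fits used log2 signal in limma 3.58.1 with Benjamini-Hochberg adjustment over all 8138 probes. They were tested on simulated data. The stage pairs were checked by the correlation of paired arrays in their deviations from the group means, which was 0.913 to 0.963 between eyespot and V-shaped arrays and 0.465 to 0.765 between instars. Alternatives were the 75th percentile scaling, normexp with loess and Aquantile, other limits of the rule and stages left out. The members and gene lists were chosen with earlier results of these data known. All 19 genes were named, by table name or identifier, and values in every sample were given for 8, Px-0392 and those with the largest lower ratio. The table of the authors' processed values was not used here. The precision is limited by the number of arrays. Where titles and tissue labels of the fourth instar disagreed, the tissues were used.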

Additional observations from a re-analysis of the deposited data

Results flagged for a closer look

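In 114 groups of 4 to 6 values of the 19 genes, 5 had a value far from the others, in 4 genes. Chance gives about 1 in 20 groups. The log2 ratio of black to white of Px-0392 (AK401321) was -0.461 at 11 h of the third molt, against -0.0393 to 0.161 on the other 5 arrays. The log2 ratio of the V-shaped marking to abdominal green of AK401667 was 1.82 at 13 h of the fourth molt, against -1.58 to -0.767. Its eyespot minus V-shaped difference was -2.72 at that hour, against -0.351 to 0.00549. At 13 h only 1 of its 4 samples was well above background. For AK402895 the ratio of the V-shaped marking to abdominal green was 1.22 at 13 h, against -0.765 to -0.387. The thoracic minus abdominal green difference of AK401683 was 2.9 in the intermolt, against 0.615 to 1.12 in the molt.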

How the results depend on the processing

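The number of genes past the rule was 19. With every probe having to pass it was 11, with a ratio of 2 it was 71 after all criteria and of 4 it was 8, and on slide 2 alone it was 29, all 19 among them. Leaving out 1 molt stage gave 19 to 30, and 30 without 0 h and also without 16 h of the third molt. In the remaining settings it was 15 to 21. The 75th percentile scaling gave 19 with 14 shared, losing AK401585, AK403863, AK403889, Px-0392 and AK402125, and normexp gave 21 with 17 shared. AK404040, AK403971, AK403635, AK401667, AK401889, AK403209 and AK401600 passed in all 21 settings other than a ratio of 4 and a minimum of 2000. With only probes well above background, 6 probes passed for thoracic against abdominal green and 27 for the eyespot against the V-shaped marking, for which normexp gave 23. Leaving out 1 stage gave 0 in each comparison. Between the instars 14 probes passed, 9 with normexp, and 0 with only probes well above background. Leaving out 1 pair gave 0 to 12, with 0 without the intermolts, 3 without 0 and 1 h and 7 without 8 and 10 h. With no replicate block, which is without the pairing by stage, 0 passed between the instars and 0 in each comparison of body position. For the change from 4 to 13 h, 4464 probes passed and 3963 without array type as a block, with 32 and 24 of the 49. The other alternatives gave 0 probes for body position. Signals near background limit what can be said of AK401667, AK401683, AK402125 and AK403587 at their lowest stages of the fourth molt.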

Other observations

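The array also held 7070 probes for 6021 sequences whose names do not begin with AK, for most of which the species is not given in the files used here. Of these sequences 13 (0.216%) met the same criteria. One of them, Px-4019 (AB264718), is listed as similar to the Drosophila gene CG3590. Its signal was 16600 in the intermolt of the third instar and 652.5 to 5122.5 over the stages of the third molt, and 8827.5 in the fourth intermolt and 190 to 1602.5 in the fourth molt, ratios of 3.24 and 5.51. FY314551 had the largest lower ratio, 8.58, with 47.5 in the fourth instar. Px-4019 and FY314551 were chosen after their values were seen.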
